A study of Homo sapiens with 28 samples.

Results

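Ribosome biogenesis is the stepwise production of ribosomal subunits in the nucleolus, where RNA polymerase I makes the ribosomal RNA precursor, small nucleolar ribonucleoproteins (snoRNPs) guide its modification and cleavage, and assembly factors fold and export the small and large subunits. Many genes of this pathway carry E-boxes, the DNA element bound by the transcription factor MYC with its partner MAX, and MYC is known to raise their transcription in growing cells, leukemia cells included. CTCF is a DNA-binding protein that organizes chromatin loops, and MYC is known to lie in a region with many CTCF sites and distant enhancers. Here 42 genes of ribosome biogenesis and nucleolar MYC target lists, taken by gene symbol out of the 57820 genes counted, were followed together with MYC mRNA after degradation of CTCF in SEM cells, a human B-cell acute lymphoblastic leukemia line. All 42 were found in the count files and all 42 passed the filter on low counts (CPM, the count of a gene scaled to library size, above 1 in at least 1 library). They fall into 7 snoRNP genes, 9 genes of abundant nucleolar proteins and RNA polymerase I, 8 of small-subunit processing, 12 of large-subunit assembly and 6 genes whose products act outside ribosome assembly but that are commonly listed with them.

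Steady-state RNA was sequenced in 28 libraries. In the 24 h set, 4 libraries of CTCFAID2 cells treated with 5-Ph-IAA were set against 4 of untreated CTCFAID2 cells, and 2 libraries of SEM WT cells treated with IAA against 2 of untreated SEM WT cells. CTCFAID2 cells carry a degron and mClover3 on endogenous CTCF, a doxycycline-inducible wild-type OsTIR1 at AAVS1, and a lentiviral OsTIR1(F74G)-P2A-EGFP cassette under the MND promoter. The sample titles give 1 µM 5-Ph-IAA, whereas the treatment text names 10 µM. SEM WT cells have no degron, and the study's regimen for them combined IAA with doxycycline although the labels name only IAA. In the 6 h set, degron cells that also carry an inducible HA-tagged CTCF were compared with and without auxin for 6 h in 4 lines of 2 and 2 libraries each. The sample titles of this set call the agent IAA and give no dose, whereas the study's methods name 10 µM 5-Ph-IAA with doxycycline for such lines. The added CTCF was full length in the WT line and lacked zinc finger 1 in DeltaZ1, zinc finger 10 in DeltaZ10 or the RNA-binding region in DeltaRBR. Whether the added CTCF had been induced in a given library of these 16 is not in the labels. They also do not say whether replicates were separate cultures, so p-values measure the spread between libraries, which may be technical.

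Libraries held 25.8 to 60.7 M counts in the 6 h set and 45.7 to 59.8 M in the 24 h set, and the least covered member of any library was GAR1 with 359 counts. The B-lineage genes CD79A, PAX5, EBF1 and VPREB1 were expressed in all 28 libraries, with CD79A between 30.3 and 94.2 TPM (a level scaled to transcript length and library size), whereas BLNK reached at most 0.75 TPM. Of 12 markers of other cell types, LYZ lay between 0.88 and 15.8 TPM and the other 11 at or under 0.37 TPM in every library. The 2 DeltaZ1 libraries with auxin stood apart from each other, with a chi-square per gene of 146, against 2.85 to 40.5 for every other pair of replicates. Counts of calls that rest on them, and the values of MYC and NDUFAF4 there, are given with and without each. In the 24 h set, CTCFAID2 libraries had more non-whole counts than SEM WT libraries (7.08 to 7.84% against 2.73 to 2.82% of genes), so line and processing cannot be told apart and only changes within a line were compared.

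Sequences are shown for the E-box, the element bound by MYC. RefSeq promoter windows (GRCh38.p14, 250 bases before to 50 bases after a gene start) were found for 35 of the 42 members. The E-box CACGTG, which reads the same on both strands, stood in at least 1 window of 20 of the 35 members (57.1%). For comparison, it stood in 12.8% of the 9076 genes of the same table with a CPM above 1 in the 24 h set and in 8.77% of all 27305 genes of the table. The share was 30.0% in 90 other ribosome biogenesis genes and 6.35% in 63 cytosolic ribosomal protein genes. The members were picked partly as MYC targets, so this share describes the list and is no independent result. The E-box, in capitals with 12 bases on either side, is printed for the members whose CTCFAID2 values are given library by library below and whose windows hold it, each on the strand of its gene.
RRP9, chr3:51941892-51941921, minus strand: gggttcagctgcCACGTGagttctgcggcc
LYAR, chr4:4290068-4290097, minus strand: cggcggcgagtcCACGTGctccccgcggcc
GAR1, chr4:109815781-109815810, plus strand: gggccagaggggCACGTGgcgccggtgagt
PUS7, chr7:105522226-105522255, minus strand: gtcgctgcgccgCACGTGtgcgagcccggc
MYBBP1A, chr17:4555340-4555369, minus strand: ggggccggagcaCACGTGtttcgtgtttcg
FBL, chr19:39846356-39846385, minus strand: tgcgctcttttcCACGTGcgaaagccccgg
PES1, chr22:30591880-30591909, minus strand: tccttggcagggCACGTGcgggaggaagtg

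The 7 printed E-boxes lay between 64 bases before a gene start in LYAR and 31 bases after it in GAR1. Only the promoter windows were searched, so any E-box found had to lie near a gene start, and nearness is no result here. Some E-boxes of members not printed, such as that of SRM, lay farther before the start. No promoter window was found for NOLC1, POLR1E, RRP12 and RRS1, which are also given library by library below. NCL and NDUFAF4, described below, had no CACGTG in their windows. Members with and without these letters had similar medians, a difference that was not tested. After 24 h in CTCFAID2 cells, 19 of the 20 members with an E-box fell with a median log2 fold change of −0.52, and 14 of the 15 without one fell with a median of −0.45, where 29.5% of all genes tested were called lower.

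In untreated CTCFAID2 cells, levels per transcript length spanned a wide range. NPM1, the nucleolar histone and ribosomal protein chaperone nucleophosmin, was the highest at 877 ± 61.9 TPM (SD, n = 4), followed by nucleolin (NCL) at 203 ± 17.4 TPM and NOP56 at 183 ± 10.4 TPM. MYC stood at 66.1 ± 6.55 TPM. At the low end, GAR1 (5.75 ± 0.51 TPM), UTP20 (5.96 ± 0.46 TPM), RCL1 (6.00 ± 0.46 TPM) and RRP12 (6.57 ± 0.47 TPM) had overlapping ranges over the 4 libraries, so their order is not resolved. Changes in members and MYC below are given in CPM normalised with TMM factors, which is suited to comparing libraries but not genes, while summed levels of marker genes are in TPM.

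The first comparison asked what happened to MYC and to the members after 24 h of 5-Ph-IAA in CTCFAID2 cells. MYC had 186, 192, 180 and 183 CPM in CTCFAID2 cells with 5-Ph-IAA, against 334, 341, 344 and 347 CPM in untreated CTCFAID2 cells. The groups did not overlap, and treated cells held 54.2% of the untreated level (log2 fold change −0.88 ± 0.03 SE, adjusted p = 1.73e-11, limma with Benjamini-Hochberg adjustment over all 13973 genes). Of the 42 members, 39 fell, 1 rose and 2 did not pass an adjusted p of 0.05, where 29.5% of all genes tested were called lower and 29.2% higher. The members were chosen with earlier results of these data known, so their counts here and below are no independent result. The median of the members was −0.50 on the log2 scale, against −0.0024 for all genes. In the same 39 members that fell, every treated library lay below every untreated one, a pattern seen in 26.6% of all genes. No member fell by as much as 2-fold, a size that 1.67% of all genes reached downward. By point estimate all 42 members had a higher log2 fold change than MYC, a difference that was not tested. In bulk RNA, fewer cells of a type and less RNA per cell cannot be told apart.

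**Figure D1:**
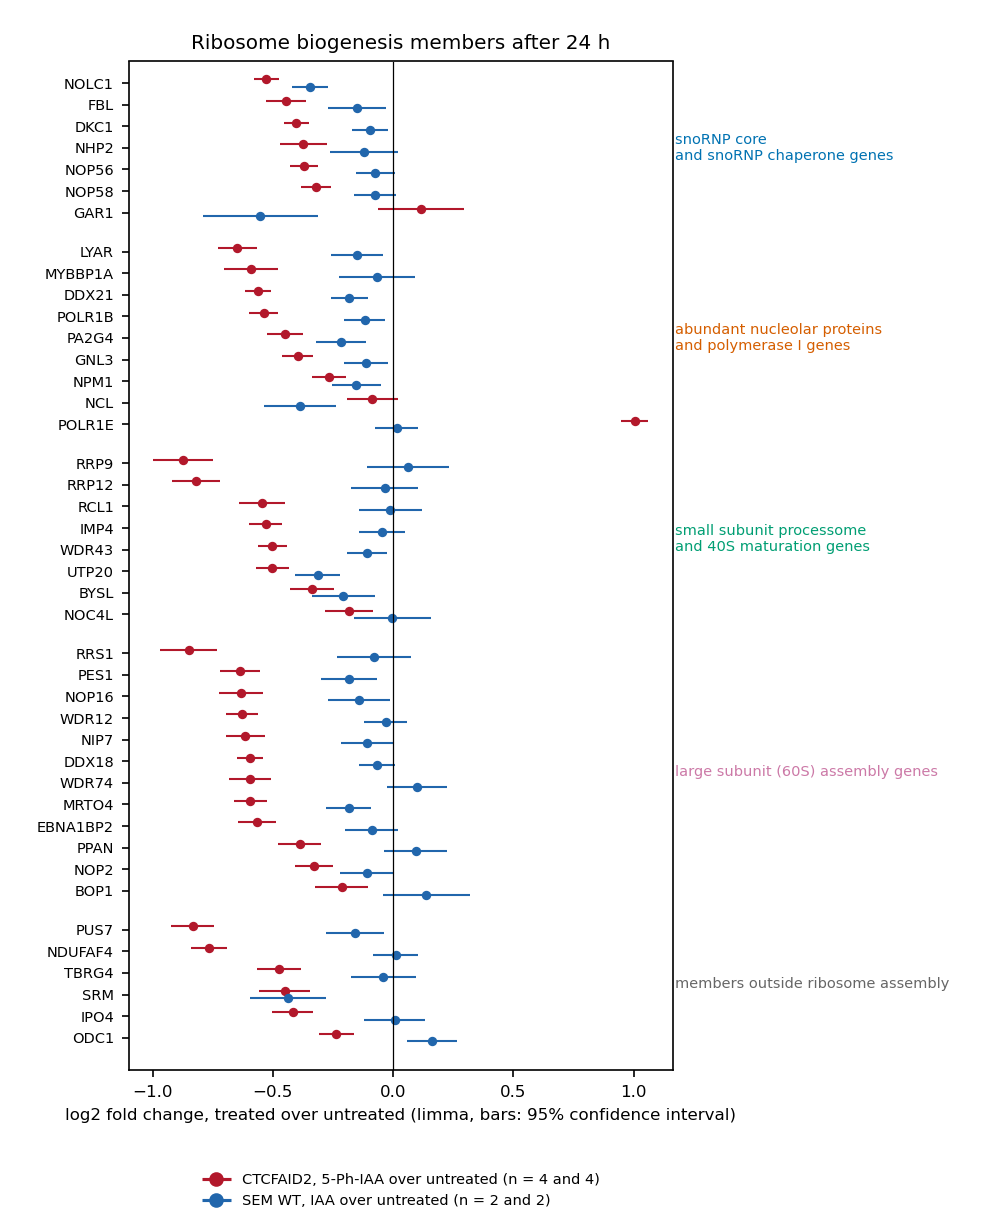
Log2 fold change of each of the 42 members after 24 h, treated over untreated, in CTCFAID2 cells (red, 4 and 4 libraries) and SEM WT cells (blue, 2 and 2 libraries), grouped by role and ordered by the change in CTCFAID2 cells. Points are limma estimates and bars 95% confidence intervals. The red points run between −0.87 for RRP9 and 0.12 for GAR1, apart from POLR1E at 1.004, while the blue points run between −0.55 for GAR1 and 0.16 for ODC1.

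Genes of small-subunit processing fell without exception, 8 of 8, with a median of −0.52. RRP9, a protein of the U3 snoRNP that is needed for early cleavages of the precursor (chr3:51967445-51975920, hg19), had 15.5, 17.2, 16.5 and 19.1 CPM in CTCFAID2 cells with 5-Ph-IAA and 31.9, 29.5, 32.7 and 30.2 CPM in untreated CTCFAID2 cells. This was the largest fall of any member by point estimate (−0.87 ± 0.06 SE, adjusted p = 1.63e-08, limma). Falls of RRS1, PUS7 and RRP12 were close to it, and their order was not tested. RRP12, which acts in maturation and nuclear export of pre-ribosomes, had 31.6, 33.9, 31.4 and 36.7 CPM with 5-Ph-IAA, against 60.04, 56.5, 58.5 and 59.9 CPM without. Its fall was of similar size (−0.82 ± 0.05 SE). The other 6 were RCL1 (−0.55), IMP4 (−0.53), WDR43 (−0.50), UTP20 (−0.50), the bystin gene BYSL (−0.34) and NOC4L (−0.18), the smallest fall of the group. IMP4, WDR43 and UTP20 are components of the small-subunit processome.

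All 12 genes of large-subunit assembly fell, with a median of −0.59. RRS1, needed for incorporation of a ribosomal RNA and its proteins into the precursor of the large subunit, had 27.5, 27.8, 25.3 and 26.0 CPM in CTCFAID2 cells with 5-Ph-IAA, against 46.9, 46.5, 51.8 and 47.2 CPM in untreated CTCFAID2 cells (−0.85 ± 0.05 SE, adjusted p = 1.07e-08, limma). PES1 had 70.3, 70.3, 69.4 and 77.9 CPM with 5-Ph-IAA and 116, 109, 114 and 108 CPM without (−0.64 ± 0.04 SE). PES1, BOP1 and WDR12 form 1 complex in large-subunit maturation, and they fell by different amounts, with WDR12 at −0.63 and BOP1 at −0.21, the smallest fall of the group. NOP16, the assembly factor NIP7, the RNA helicase DDX18, WDR74, MRTO4 and EBNA1BP2 lay between −0.63 and −0.57. PPAN (−0.39) and the rRNA methyltransferase NOP2 (−0.33) fell less.

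Of the 7 snoRNP genes, 6 fell, with a median of −0.37. NOLC1, which encodes a chaperone of snoRNPs, had 171, 167, 168 and 164 CPM in CTCFAID2 cells with 5-Ph-IAA and 243, 237, 245 and 240 CPM in untreated CTCFAID2 cells (−0.53 ± 0.02 SE, adjusted p = 3.98e-10, limma). FBL, the methyltransferase fibrillarin of box C/D snoRNPs, had 57.2, 57.1, 57.7 and 63.1 CPM with 5-Ph-IAA, against 82.4, 81.3, 76.6 and 79.4 CPM without (−0.45 ± 0.04 SE). NOP56 (−0.37) and NOP58 (−0.32), the paired core proteins of the same particles, fell by similar amounts. In box H/ACA snoRNPs, which carry out pseudouridylation, the catalytic subunit DKC1 (−0.40) and NHP2 (−0.37) fell, whereas their partner GAR1 did not pass. GAR1 had 16.3, 14.98, 13.6 and 11.9 CPM in CTCFAID2 cells with 5-Ph-IAA and 13.6, 11.98, 13.2 and 13.6 CPM in untreated CTCFAID2 cells. These groups overlapped, with a log2 fold change of 0.12 (95% confidence interval −0.06 to 0.29, adjusted p = 0.252, limma). Without 5-Ph-IAA replicate 4, GAR1 passed as higher (0.18, adjusted p = 0.0386, limma).

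Among abundant nucleolar proteins and RNA polymerase I genes, 7 of 9 fell, with a median of −0.45 over the 9, and this group held the only member that rose. POLR1E, which encodes the PAF53 subunit of RNA polymerase I (chr9:37485945-37503694, hg19), had 128, 126, 126 and 131 CPM in CTCFAID2 cells with 5-Ph-IAA, against 65.6, 62.4, 63.4 and 63.1 CPM in untreated CTCFAID2 cells. Every treated library was higher than every untreated one, by 2.01-fold (log2 fold change 1.004 ± 0.03 SE, adjusted p = 1.3e-12, limma). POLR1B, the gene of another subunit of the same enzyme, fell (−0.54). LYAR, a nucleolar zinc finger protein, had 25.6, 24.2, 25.4 and 26.2 CPM with 5-Ph-IAA and 39.3, 41.1, 39.4 and 39.1 CPM without (−0.65 ± 0.04 SE). MYBBP1A, a nucleolar Myb-binding protein, had 68.3, 78.9, 67.6 and 79.2 CPM with 5-Ph-IAA, against 106, 111, 108 and 115 CPM without (−0.59 ± 0.05 SE). The helicase gene DDX21 (−0.56), PA2G4 (−0.45), the nucleostemin gene GNL3 (−0.40) and NPM1 (−0.27) fell as well. NCL did not pass: it had 938, 852, 861 and 765 CPM in treated and 912, 851, 934 and 924 CPM in untreated CTCFAID2 cells, overlapping groups with a log2 fold change of −0.09 (95% confidence interval −0.19 to 0.02, adjusted p = 0.15, limma). Without 5-Ph-IAA replicate 1, NCL passed as lower (−0.15, adjusted p = 0.0133, limma).

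The 6 members that act outside ribosome assembly all fell, with a median of −0.46. PUS7, a pseudouridine synthase of messenger and transfer RNA, had 39.3, 38.6, 39.4 and 43.9 CPM in CTCFAID2 cells with 5-Ph-IAA and 72.8, 71.4, 71.6 and 70.8 CPM in untreated CTCFAID2 cells (−0.83 ± 0.04 SE). NDUFAF4, an assembly factor of mitochondrial respiratory complex I, had 20.5, 20.2, 20.4 and 22.0 CPM with 5-Ph-IAA, against 34.4, 35.7, 35.6 and 35.1 CPM without (−0.76 ± 0.03 SE). TBRG4, which acts on mitochondrial RNA, stood at −0.48 and the nuclear import receptor gene IPO4 at −0.42. Of the polyamine synthesis enzymes, spermidine synthase (SRM, −0.45) fell more than ornithine decarboxylase (ODC1, −0.24) by point estimate, a difference that was not tested.

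**Figure D2:**
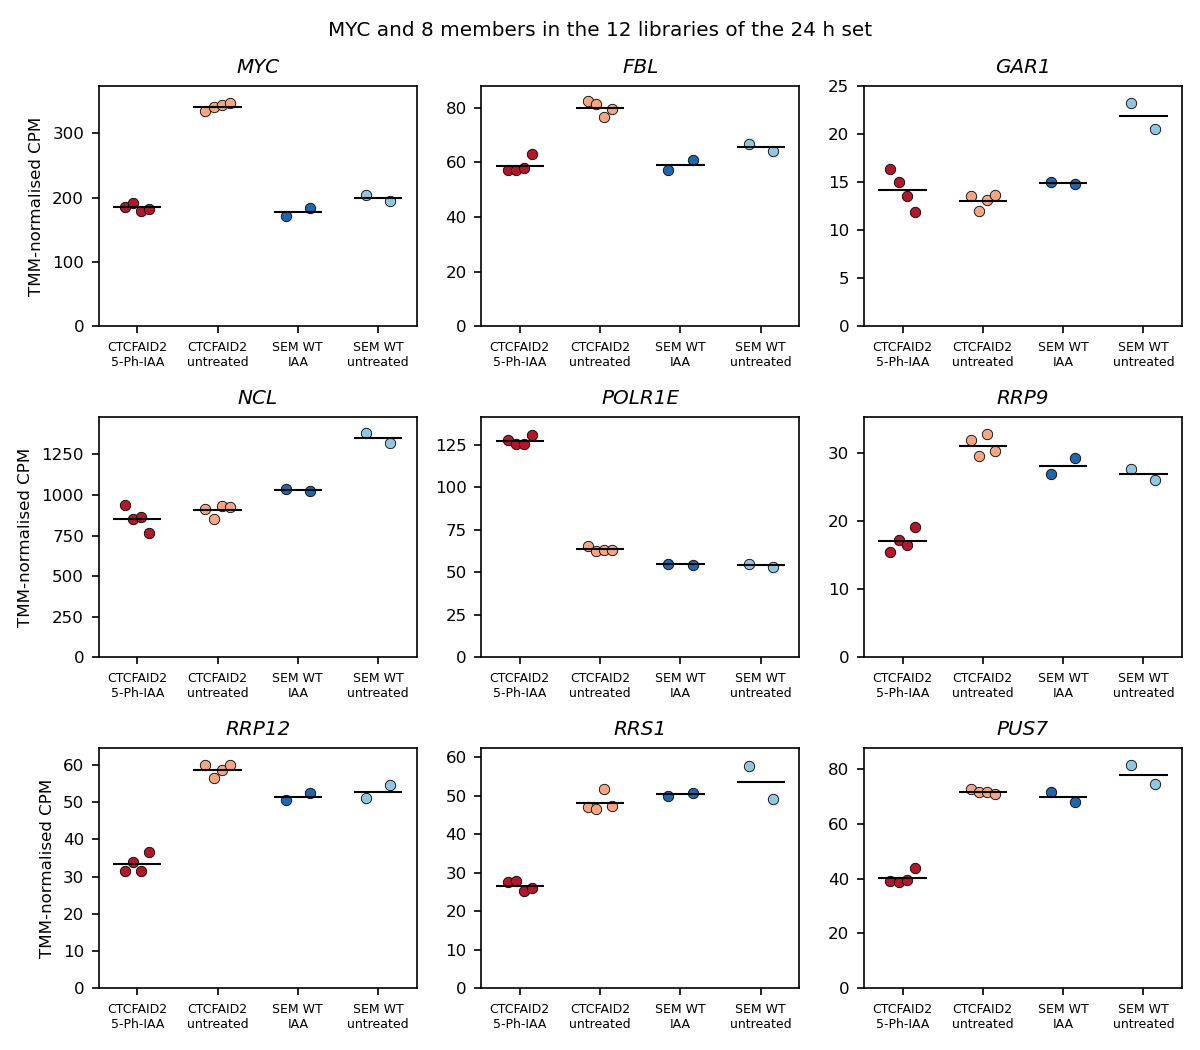
TMM-normalised CPM of MYC and 8 members in each of the 12 libraries of the 24 h set, with treated and then untreated CTCFAID2 cells on the left of each panel and treated and then untreated SEM WT cells on the right. Points are libraries and black lines group means. MYC, FBL, RRP9, RRP12, RRS1 and PUS7 lie lower in all 4 treated than in all 4 untreated CTCFAID2 libraries, POLR1E lies higher, and GAR1 and NCL overlap.

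Genes of the same pathways outside the 42 mostly moved in the same direction after 24 h in CTCFAID2 cells, to different extents. Of all genes tested there, 29.5% were called lower and 29.2% higher. The comparison lists were chosen with earlier results of these data known, so their counts are no independent result. Of 115 other ribosome biogenesis genes, 105 fell and 2 rose (median −0.33). The 2 largest falls were those of NLE1 (−1.72), a factor of large-subunit maturation, and WDR3 (−0.75), a processome protein, and the 2 that rose were NOL11 (0.49) and UBTF (0.36), the gene of the RNA polymerase I transcription factor UBF. Of 79 cytosolic ribosomal protein genes, 60 fell and 19 did not pass, with a median of −0.15. The largest falls among them were those of RPL36 (−0.58) and RPL36A (−0.55). Of 25 tested MYC targets of metabolism and the cell cycle, 20 fell and 1 rose (median −0.24), with DHODH (−0.63) and TFRC (−0.60) lowest and PRPS2 (0.37) the 1 that rose. The B-lineage markers went the other way, with 6 of 8 higher and BLNK lower, and LYZ fell (−0.97). The summed level of the 8 B-lineage markers was 276 to 306 TPM in CTCFAID2 cells with 5-Ph-IAA and 180.2 to 214 TPM in untreated CTCFAID2 cells. The summed level of the 12 markers of other cell types was 3.15 to 3.82 TPM with 5-Ph-IAA, against 5.32 to 6.83 TPM without, nearly all of it LYZ, and CD3D, CD8A, HBA1 and DCN were at 0 in every library. The part of these markers in the members' change was not tested.

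SEM WT cells addressed what the earlier auxin regimen does in cells whose CTCF carries no degron. MYC had 171 and 185 CPM in SEM WT cells with IAA, against 204 and 195 CPM in untreated SEM WT cells, a fall of 0.16 on the log2 scale (adjusted p = 0.0205, limma). Of the 42 members, 11 fell, 1 rose and 30 did not pass, where 9.57% of all genes were called lower and 9.35% higher. The median was −0.10, and in 26 members both treated libraries lay below both untreated ones, against 28% of all genes. The summed level of the other-cell-type markers was 8.38 to 11.1 TPM with IAA and 12.95 to 15.9 TPM without. The summed level of the B-lineage markers was 156 and 148 TPM with IAA, against 187 and 161 TPM without, lower where CTCFAID2 cells were higher. The part of these markers in the members' change was not tested. The count of 11 was 18 when CTCFAID2 5-Ph-IAA replicate 4 was left out of the shared estimate of spread, and 17 by DESeq2. In these settings the share of all genes called was not counted.

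Both members that did not pass in CTCFAID2 cells, GAR1 and NCL, fell in SEM WT cells. GAR1 had 15.1 and 14.8 CPM in SEM WT cells with IAA and 23.3 and 20.6 CPM in untreated SEM WT cells (−0.55 ± 0.11 SE, adjusted p = 0.00366, limma). NCL had 1038 and 1024 CPM with IAA, against 1379 and 1321 CPM without (−0.39 ± 0.07 SE). These were 2 of the 3 largest falls in SEM WT cells, with SRM (−0.44) between them. NOLC1 (−0.34), UTP20 (−0.31), PA2G4 (−0.22), BYSL (−0.21), MRTO4 (−0.19), PES1 (−0.18), DDX21 (−0.18) and NPM1 (−0.15) also fell, and ODC1 rose (0.16). Among members with large falls in CTCFAID2 cells, RRP9 had 26.9 and 29.2 CPM in SEM WT cells with IAA and 27.7 and 26.0 CPM without, and NDUFAF4 had 45.3 and 44.2 CPM with IAA and 44.7 and 44.1 CPM without. In both genes the groups overlapped. PUS7 had 71.5 and 67.8 CPM with IAA, against 81.3 and 74.3 CPM without, so both treated libraries lay below both untreated ones although the change did not pass (−0.16, adjusted p = 0.0657, limma). The POLR1E groups overlapped, with 54.7 and 54.6 CPM in SEM WT cells with IAA, against 54.8 and 53.4 CPM in untreated SEM WT cells.

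The difference between the 2 changes was tested directly, as the change in CTCFAID2 cells minus that in SEM WT cells. It was below 0 in 35 members and above 0 in 3 at an adjusted p of 0.05, where 20.9% of all genes were called lower and 19.3% higher (median −0.40). MYC itself differed by −0.72 ± 0.05 SE (adjusted p = 1.58e-07, limma). The 3 members with a higher change in CTCFAID2 cells were POLR1E (0.99), GAR1 (0.67) and NCL (0.30). The 4 that did not pass were NPM1, NOC4L, BYSL and SRM, and for SRM the difference was −0.01 (95% confidence interval −0.21 to 0.18). The lines received different agents at different doses, and their genotype and share of non-whole counts differed too. Degradation of CTCF, agent, line and processing therefore cannot be told apart in this difference.

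At 6 h, MYC mRNA fell in all 4 lines and by more than after 24 h. It had 136 and 144 CPM in the WT line with auxin, against 302 and 297 CPM in the untreated WT line, a log2 fold change of −1.099. It had 115 and 124 CPM in DeltaZ1 cells with auxin and 357 and 366 CPM in untreated DeltaZ1 cells (−1.60 ± 0.07 SE), the largest of the 4 falls. It had 138 and 159 CPM in DeltaZ10 cells with auxin, against 330 and 347 CPM without (−1.19), and 170 and 169 CPM in DeltaRBR cells with auxin, against 349 and 332 CPM without (−1.003). The mean over the 4 lines was −1.22 ± 0.04 SE (adjusted p = 9.31e-10, limma over 13902 genes), or 42.8% of the untreated level. Without auxin replicate 1 of DeltaZ1 the MYC change was −1.55 in that line and −1.21 over the mean, and without replicate 2 it was −1.66 and −1.24.

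The members moved far less at that time. Over the mean of the 4 lines 21 fell, 3 rose and 18 did not pass, where 26.4% of all genes were called lower and 25.1% higher, and their median was −0.13. Line by line, 1 member fell and 2 rose in the WT line (7.21% of all genes lower, 6.45% higher), 22 fell and 1 rose in DeltaZ1 (16.4% lower, 17.1% higher), 9 fell and 1 rose in DeltaZ10 (9.24% lower, 8.88% higher), and 3 fell and 0 rose in DeltaRBR by limma (5.68% lower, 4.8% higher). In DeltaRBR, 0 rose by edgeR or DESeq2. At an unadjusted p under 0.05, where the share of all genes was not counted, 2 members were higher. The medians were −0.03, −0.27, −0.17 and −0.09 in the WT, DeltaZ1, DeltaZ10 and DeltaRBR lines. With 2 libraries a group these counts were unstable. Leaving out 1 library of the 6 h set moved them over 0 to 6 in the WT line, 13 to 24 in DeltaZ1, 3 to 18 in DeltaZ10 and 0 to 9 in DeltaRBR. The highest counts of the WT, DeltaZ10 and DeltaRBR lines (5 or 6, 18 and 9) all came from leaving out either DeltaZ1 library with auxin, which enter the shared estimate of spread, and the 13 in DeltaZ1 came from leaving out its untreated replicate 2. The 3 in DeltaZ10 came from leaving out its untreated replicate 1 or 2 or its auxin replicate 1. The WT line lost its 1 call without any 1 of its own libraries, of the untreated DeltaZ1 libraries, of the untreated DeltaZ10 libraries or of the DeltaRBR libraries. The 2 that rose in the WT line were 1 without its untreated replicate 1 or either of its auxin libraries and 0 without its untreated replicate 2. The 0 in DeltaRBR came from leaving out either of its auxin libraries or its untreated replicate 1, and 1 member fell without its untreated replicate 2. When only the groups of a line were fitted, 7 members fell in the WT line, 0 in DeltaZ1 and 10 in DeltaRBR. For these fits and for those without a library, the share of all genes called was not counted.

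Markers of cell type moved at 6 h as well. Over the mean of the lines, 5 of the 8 B-lineage markers fell and 1 rose, where 26.4% of all genes were called lower and 25.1% higher. LYZ fell (−1.54). The summed level of the 12 markers of other cell types was 1.14 and 1.52 TPM in the WT line with auxin, against 2.87 and 3.67 TPM without, and 1.41 and 2.34 TPM in DeltaZ1 cells with auxin, against 3.72 and 3.61 TPM without. It was 1.29 and 1.43 TPM in DeltaZ10 cells with auxin, against 2.90 and 3.61 TPM without, and 1.61 and 1.85 TPM in DeltaRBR cells with auxin, against 5.89 and 5.42 TPM without. The summed level of the 8 B-lineage markers overlapped between treated and untreated libraries in the WT, DeltaZ1 and DeltaZ10 lines, with the highest value of the 6 h set, 294 TPM, in DeltaZ1 auxin replicate 2. In DeltaRBR it was 224 and 212 TPM with auxin, against 279 and 238 TPM without. The part of these markers in the members' values at 6 h was not tested.

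**Figure D3:**
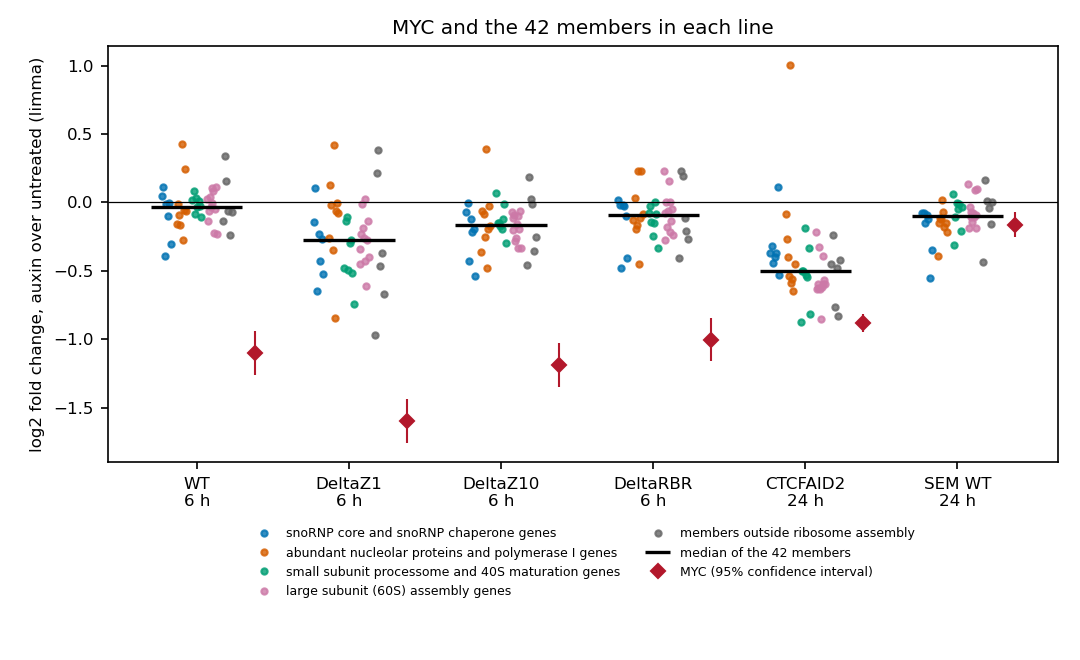
Log2 fold change of MYC (red diamonds, with 95% confidence intervals) and of the 42 members (points coloured by role, black lines at their medians) after auxin in the 4 lines of the 6 h set and the 2 lines of the 24 h set, each over its own untreated libraries. MYC lies between −1.60 and −1.003 at 6 h while the medians of the members lie between −0.27 and −0.03, and in CTCFAID2 cells at 24 h MYC lies at −0.88 and the median at −0.50.

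Among the 21 members that fell over the mean at 6 h, NOLC1 was the only one that fell in all 4 lines. It was the 1 call of the WT line, which was lost without any 1 of that line's libraries, and its call in DeltaRBR was lost without any 1 library of DeltaRBR. NOLC1 had 215 and 240 CPM in the WT line with auxin, against 279 and 280 CPM in the untreated WT line. It had 229 and 196 CPM in DeltaZ1 cells with auxin and 302 and 307 CPM without. DeltaZ10 cells had 196 and 228 CPM with auxin, against 297 and 316 CPM without, and DeltaRBR cells 230 and 224 CPM with auxin, against 301 and 301 CPM without. Its mean change was −0.44 ± 0.04 SE, and no treated library overlapped an untreated one of its line. MYBBP1A fell in 3 lines and by point estimate had the largest fall of the mean (−0.51 ± 0.05 SE, adjusted p = 8.32e-06, limma). It had 96.6 and 97.7 CPM in the WT line with auxin, against 126 and 110 CPM without, and 77.3 and 63.1 CPM in DeltaZ1 cells with auxin, against 119 and 132 CPM without. DeltaZ10 cells had 90.6 and 95.8 CPM with auxin, against 132 and 128 CPM without, and DeltaRBR cells 95.5 and 92.6 CPM with auxin, against 138 and 120.2 CPM without. No MYBBP1A group overlapped its untreated group, although the WT line did not pass (−0.27). FBL (−0.49) and SRM (−0.49) fell over the mean but varied between replicates. FBL had 50.4 and 72.7 CPM in the WT line with auxin, against 80.9 and 79.5 CPM without, and 49.6 and 69.4 CPM in DeltaZ10 cells with auxin, against 67.3 and 92.5 CPM without, where the groups overlapped.

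POLR1E was higher at 6 h too. It had 70.4 and 67.1 CPM in the WT line with auxin and 52.2 and 49.8 CPM in the untreated WT line, 71.8 and 82.4 CPM in DeltaZ1 cells with auxin, against 58.6 and 56.3 CPM without, and 76.9 and 76.5 CPM in DeltaZ10 cells with auxin, against 59.6 and 57.6 CPM without. It rose in these 3 lines, and in DeltaRBR it had 62.0 and 67.4 CPM with auxin, against 57.5 and 53.4 CPM without (0.23, adjusted p = 0.0845, limma). The mean over the lines was 0.37 ± 0.04 SE. The other 2 members that rose over the mean, ODC1 (0.24 ± 0.04 SE) and NDUFAF4 (0.19 ± 0.07 SE, adjusted p = 0.0397, limma), were among those that fell at 24 h. ODC1 had 481 and 454 CPM in the WT line with auxin, against 373 and 367 CPM in the untreated WT line, and its log2 fold change was above 0 in all 4 lines, at 0.34 in WT, 0.21 in DeltaZ1, 0.19 in DeltaZ10 and 0.23 in DeltaRBR, with only WT past the threshold. NDUFAF4 was highest in DeltaZ1 auxin replicate 2, with 30.6 and 43.9 CPM in DeltaZ1 cells with auxin, against 27.7 and 28.9 CPM without. Its mean change was 0.25 without replicate 1 (adjusted p = 0.000293, limma) and 0.12 without replicate 2 (adjusted p = 0.0367, limma), and its change in DeltaZ1 was 0.62 and 0.11.

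Set side by side, 20 members fell both at 6 h over the mean of the lines and at 24 h in CTCFAID2 cells, 17 fell at 24 h and did not pass at 6 h, and 2 rose at 6 h but fell at 24 h. Of all genes, 26.4% were called lower at 6 h and 29.5% at 24 h, and the share called lower at both was not counted. Nearly all members fell at 24 h, so this split follows largely from their calls at 6 h. NCL fell at 6 h (−0.23 over the mean) and did not pass at 24 h, and the difference between its changes did not pass either (0.15, adjusted p = 0.135, limma). GAR1 passed at neither time and POLR1E rose at both. The change at 24 h minus the mean change at 6 h, fitted over all 28 libraries, was below 0 in 30 members and above 0 in 1, where 23% of 14260 genes were called lower and 24.6% higher (median −0.33). For MYC this difference was above 0 (0.35 ± 0.05 SE, adjusted p = 1.54e-05, limma). The most negative differences were those of NDUFAF4 (−0.95), RRS1 (−0.76), LYAR (−0.75), RRP9 (−0.75) and NIP7 (−0.61). RRS1 had 45.7 and 49.5 CPM in the WT line with auxin for 6 h, against 44.5 and 44.3 CPM without, and RRP9 had 23.9 and 22.8 CPM with auxin, against 24.2 and 21.9 CPM without. In the RRP9 values of this line the groups overlapped. Both genes fell in DeltaZ1 and did not pass in the other 3 lines. In DeltaZ1 cells RRS1 had 38.1 and 35.9 CPM with auxin, against 53.4 and 46.2 CPM without (−0.43), and RRP9 had 18.4 and 18.3 CPM with auxin, against 24.5 and 26.6 CPM without (−0.48). The RRS1 call was lost without DeltaZ1 auxin replicate 2 (−0.38, adjusted p = 0.0599, limma). FBL, NOLC1, MYBBP1A and SRM were among the 11 members without a call, at 0.05, −0.08, −0.07 and 0.05, and the interval for SRM, −0.31 to 0.41, was wide. Time, line and the added CTCF differ between the sets, agent and dose may differ as well, and these cannot be told apart. Leaving out DeltaZ1 auxin replicate 1 gave 31 calls in all and replicate 2 gave 32, against 31 with all libraries (30 lower and 1 higher). For these refits the share of all genes called was not counted.

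**Figure D4:**
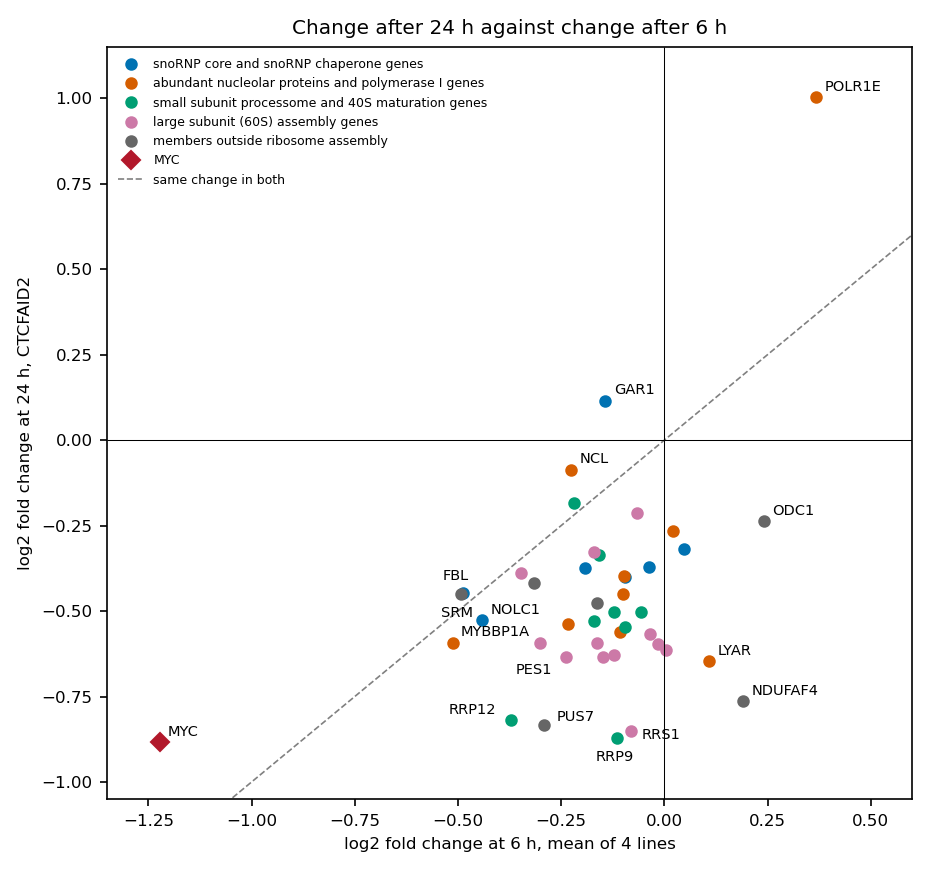
Log2 fold change of each member (circles, coloured by role) and of MYC (diamond) after 24 h in CTCFAID2 cells on the vertical axis, against the mean of the 4 lines after 6 h on the horizontal axis. Members below the dashed line changed to a lower value at 24 h than at 6 h, which holds for 36 of 42, while MYC lies above it.

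Whether a deletion in the added CTCF altered the response was tested as the change in each deletion line minus that in the WT line. By limma 0 members passed in each of the 3 comparisons, where 0.331% of all genes were called in either direction for DeltaZ1, 0.0432% for DeltaZ10 and 0% for DeltaRBR. At an unadjusted p under 0.05, 19 members were lower in DeltaZ1, 2 in DeltaZ10 and 0 in DeltaRBR, and none higher in any of the 3. The share of all genes at that unadjusted threshold was not counted, so these counts cannot be set against the shares above. At an adjusted p of 0.05 the edgeR quasi-likelihood test gave 0 members in each comparison, and DESeq2 gave 6 for DeltaZ1 and 0 for the other 2 lines. The limma count for DeltaZ1 was 17, of which 4 were higher, without its auxin replicate 1 and 0 without its auxin replicate 2. By edgeR, by DESeq2 or without a library, the share of all genes called was not counted. The 17 therefore cannot be set against the 0.331% of the fit on all libraries. For MYC the difference of DeltaZ1 from the WT line was −0.50, which passed at an unadjusted p only. Before auxin, deletion lines did not differ from the WT line in any member at an adjusted p of 0.05 by limma, edgeR or DESeq2, where 0% of all genes were called for DeltaZ1, 0% for DeltaZ10 and 0% for DeltaRBR. At an unadjusted p under 0.05, 0 members were higher in untreated DeltaZ1, 8 in untreated DeltaZ10 and 2 in untreated DeltaRBR, and none lower. Here too the share of all genes at the unadjusted threshold was not counted. By point estimate, 42 of 42 members were above the WT line in untreated DeltaZ1 (median 0.0997), 40 in untreated DeltaZ10 (median 0.13) and 31 in untreated DeltaRBR (median 0.06). The medians of all genes were 0.0043, 0.0015 and −0.0011, and the share of all genes above 0 was not counted. All members were measured in the same few libraries, so these counts are not independent observations. Untreated MYC was higher than in the WT line by 0.27 in DeltaZ1, 0.18 in DeltaZ10 and 0.18 in DeltaRBR at an unadjusted p under 0.05, with none past an adjusted p of 0.05 by limma. The part of these untreated levels in the differences of response was not tested.

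The members in the 2 DeltaZ1 libraries with auxin showed how far these differ. Relative to the untreated mean of the line, the median member stood at −0.33 in replicate 1 and −0.24 in replicate 2 on the log2 scale, but the quartiles ran between −0.44 and −0.22 in replicate 1 and between −0.54 and 0.08 in replicate 2. In replicate 1, 39 of 42 members lay below the untreated mean and in replicate 2, 29 did. The number that fell in DeltaZ1 was 23 without replicate 1 and 24 without replicate 2, against 22 with both. The number that rose there was 9 without replicate 1 and 1 without replicate 2, against 1. The number that fell over the mean of the lines was 23 without replicate 1 and 27 without replicate 2, against 21, and 6 and 3 rose, against 3. Without either replicate the share of all genes called was not counted. LYAR, with 27.6 and 40.5 CPM in DeltaZ1 cells with auxin and 36.0 and 31.7 CPM without, passed as higher without replicate 1 (0.25, adjusted p = 0.0401, limma). In CTCFAID2 cells the 4 treated libraries were closer to each other, with medians of −0.50, −0.51, −0.52 and −0.43.

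**Figure D5:**
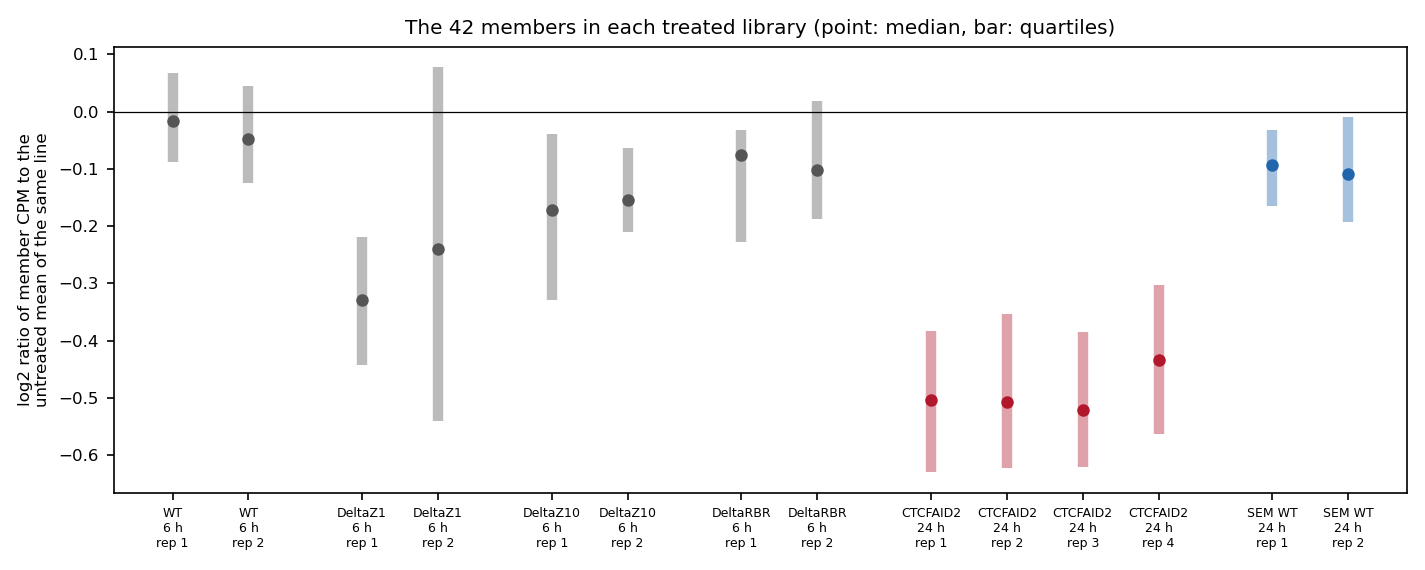
Median (points) and quartiles (bars) over the 42 members of the log2 ratio of CPM in each treated library to the untreated mean of its line. The 4 CTCFAID2 medians lie between −0.52 and −0.43, the 2 SEM WT medians at −0.09 and −0.11, and the widest quartiles, −0.54 to 0.08, are those of DeltaZ1 replicate 2.

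Some member values carry limits from the annotation. Of the 42 members, 9 share exon sequence with another counted gene whose counts were at least 1% of theirs, 7 of them with a gene on the other strand (MYBBP1A, NOP16, NHP2, WDR12, NIP7, GNL3 and IPO4) and 3 with a gene on the same strand (WDR74 with the small nuclear RNA gene RNU2-2P, PPAN with P2RY11, and IPO4). Whether strand was used in counting is not stated, so these values are uncertain. NPM1 has 45 pseudogenes among the counted genes, which together held 5.55% of its counts. Host genes of small nucleolar RNAs made up 9 of the 42, and their median after 24 h in CTCFAID2 cells was −0.39, against −0.55 in the other 33.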

How the data were processed

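RNA-seq libraries had been trimmed by the authors with Trim Galore 0.6.3, mapped with STAR 2.7.9a to hg19 and quantified with RSEM 1.3.1 on Gencode of that build. The deposited expected counts per gene, not normalised, were rounded to whole numbers, and the deposited TPM values were used only for levels between genes and of markers. The labels name a 3′ kit, whereas the methods describe ribosomal RNA-depleted total RNA. FPKM columns and matrices that repeat the 16 libraries of the 6 h set were not used, nor were 92 spike-in entries. CTCF was depleted as protein, so its mRNA does not check the auxin labels. Whether CTCF mRNA shows induction of the added CTCF in the 6 h set was not examined.

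Each set was fitted with limma 3.58.1 (voom, TMM factors 0.968 to 1.03 from edgeR 4.0.16, R 4.3.3), with a mean per group, on genes that exceeded a CPM of 1 somewhere in the set, and p-values were adjusted by Benjamini-Hochberg over all genes of the set. The call was an adjusted p of at most 0.05. Alternatives were edgeR, DESeq2 1.42.0, other scaling factors, filters, fits on fewer groups, a replicate block and omission of each library. The fits were run on simulated counts with the same spread for every gene and no outlying library. Only the CTCFAID2 24 h and WT line 6 h comparisons were simulated. Gene positions came from GENCODE lifted to GRCh37, and promoter windows from RefSeq (GRCh38.p14), which was matched by symbol. Replicate numbers were not taken as pairs. In groups of 2 libraries, correlations cannot show whether pairing was absent.

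Members and lists were chosen with earlier results of these data known. Values per library are given for MYC, for the 2 largest falls of each role group at 24 h in CTCFAID2 cells and for members that rose or did not pass there, and for comparison lists at most the 2 largest changes in each direction are named. SRM and ODC1 at 6 h were added after their values were seen.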

Additional observations from a re-analysis of the deposited data

Results flagged for a closer look

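Among 86 groups of 4 libraries (MYC and each member, in treated and in untreated CTCFAID2 cells), 10 had 1 library far from the other 3, where chance alone gives about 1 in 20. In CTCFAID2 cells with 5-Ph-IAA, replicate 4 was the highest in 7 genes. It had 63.1 CPM of FBL (others 57.1 to 57.7), 22.0 of NDUFAF4 (20.2 to 20.5), 29.4 of NOP16 (27.5 to 27.7), 199 of PA2G4 (178 to 181), 77.9 of PES1 (69.4 to 70.3), 43.9 of PUS7 (38.6 to 39.4) and 88.4 of UTP20 (80.9 to 82.0). Replicate 2 of the same group was low for GNL3, at 144 CPM (153 to 155). In untreated CTCFAID2 cells LYAR was high in replicate 2, at 41.1 CPM (39.1 to 39.4), and RRS1 in replicate 3, at 51.8 CPM (46.5 to 47.2). None of these 10 libraries crossed into the range of the other treatment.

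The change in CTCFAID2 cells minus that in SEM WT cells differed from 0 in 35 members downward and 3 upward. For MYC the difference was −0.72. Among the members given library by library it was −0.93 for RRP9, −0.78 for RRP12, −0.77 for NDUFAF4 and for RRS1, −0.67 for PUS7, −0.53 for MYBBP1A, −0.50 for LYAR, −0.45 for PES1, −0.30 for FBL and −0.18 for NOLC1. It was 0.99 for POLR1E, 0.67 for GAR1 and 0.30 for NCL.

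The change at 24 h minus the mean change at 6 h differed from 0 in 30 members downward and 1 upward. It was −0.95 for NDUFAF4, −0.76 for RRS1, −0.75 for LYAR and for RRP9, −0.54 for PUS7, −0.44 for RRP12 and −0.39 for PES1. It was 0.64 for POLR1E and 0.35 for MYC.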

How the results depend on the processing

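In CTCFAID2 cells 39 members fell under every other tool, scaling, filter, block and choice of groups, whereas a 2-fold threshold gave 0 there as in SEM WT cells, in each 6 h line and in the mean of the lines. Leaving out 1 library gave 39 to 40 in CTCFAID2 cells, 8 to 18 in SEM WT cells (11 with all), 35 to 39 for the difference of these changes (38 with all), 0 to 6 in the WT line (1 with all), 13 to 24 in DeltaZ1 (22), 3 to 18 in DeltaZ10 (9), 0 to 9 in DeltaRBR (3), 19 to 27 for the mean of the lines (21), 0 to 17 for DeltaZ1 minus WT (0) and 29 to 33 for 24 h minus 6 h (31). DESeq2 gave 17 in SEM WT cells, 2 in the WT line and 6 for DeltaZ1 minus WT. In the WT line library sizes alone gave 0, no filter gave 0 and a fit on its own groups gave 7. Such a fit gave 0 in DeltaZ1 and 10 in DeltaRBR. The cause of these shifts was not tested. For the settings of this section, the replicate block included, the share of all genes called was not counted.

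Some members near 0 changed direction. NDUFAF4 in SEM WT cells was −0.00132 with library sizes alone. GAR1 in the WT line was 0.00652 by edgeR, 0.000609 by DESeq2, 0.0261 with no filter and 0.0080017 on its own groups, against −0.00294. LYAR in DeltaZ1 was 0.0113 by edgeR, 0.0115 by DESeq2, 0.00772 with library sizes alone and 0.0241 with no filter, against −0.00601. Without 1 library, in SEM WT cells POLR1E lay between −0.00303 and 0.0234, RRP9 between −0.0070015 and 0.121, RRP12 between −0.0939 and 0.0122, RRS1 between −0.196 and 0.0287, and NDUFAF4 between −0.00689 and 0.0214. In the WT line GAR1 lay between −0.294 and 0.245, RRP9 between −0.0521 and 0.0872, and RRP12 between −0.222 and 0.00381. In DeltaZ1 LYAR lay between −0.291 and 0.251. In DeltaZ10 GAR1 lay between −0.682 and 0.211, LYAR between −0.0615 and 0.0225, RRP9 between −0.0138 and 0.173, RRS1 between −0.33 and 0.00687, and NDUFAF4 between −0.0849 and 0.167. In DeltaRBR RRP9 lay between −0.16 and 0.0161.

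The replicate block gave 39 falls in CTCFAID2 cells, 8 in SEM WT cells, 37 calls for the difference of these changes, 21 falls for the mean of the 6 h lines and 30 calls for 24 h minus 6 h. Same-numbered CTCFAID2 libraries correlated at −0.22, 0.06, 0.06 and −0.19. The value was 0.09 in SEM WT, 0.15 in the WT line, −0.09 in DeltaZ1, 0.15 in DeltaZ10 and 0.16 in DeltaRBR cells, with 2 pairs each, and across the groups of the 6 h set 8 of 28 same-numbered pairs were above 0.1. The numbers were not taken as pairs. With 2 libraries a group, falls of small size in single lines were at the limit of what these counts resolve.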
